A study of Mus musculus with 24 samples.

Results

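The epidermal differentiation complex is a gene cluster that encodes the building material of the cornified envelope, the crosslinked protein shell of dead surface keratinocytes. Its genes were described here in mice whose keratinocytes had lost Bmal1, or Arntl, the transcription factor that drives the molecular clock together with CLOCK. The members were the rows of the authors' deposited table whose Ensembl identifier belongs to a symbol beginning Sprr, Lce or S100a, or to Lor, Flg, Flg2, Hrnr, Ivl, Tchh, Tchhl1, Rptn, Crnn, Tgm1 or Tgm3. The rule covered 64 annotated genes, of which 53 had a row among the 17721 genes of the table. Of these, 51 lie in a stretch of 3.05 Mb on mouse chromosome 3, from 90511034 to 93564643 (mm10), and Tgm1 on chromosome 14 and Tgm3 on chromosome 2 encode enzymes that crosslink the cluster's products. Flg, S100a5, Sprr2a2, Sprr2e, Sprr2i, Sprr2k, Sprr3, Lce1j and the pseudogenes S100a11-ps, Sprr2c-ps and Sprr2j-ps had no row and were not analysed here.

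EpiKO mice were 8-week-old C57BL/6 males in which Cre recombinase under the keratin 14 promoter removed Bmal1. In skin this promoter is active in basal keratinocytes and the outer root sheath of hair follicles. Cells that neither made Cre nor descended from cells that did kept the gene. Epidermis was freed from back skin with dispase from 4 animals at each of 6 times, ZT0, 4, 8, 12, 16 and 20, where zeitgeber time (ZT) 0 is lights on in a day of 12 h light and 12 h dark, which gave 24 RNA-seq libraries. The authors compared them with wild-type (WT) epidermis, whose libraries are not samples of this series and of which the sources used here do not give the age, sex or handling. The only file is the output of that comparison, so no value per library, spread between animals or sequencing depth is known, no test across animals could be run, and genotype cannot be told apart from any difference in how both sets of libraries were made, sequenced or counted.

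In each genotype the authors fitted a cosine with a 24 h period to log2 normalised values and weighed 5 rhythm models by their Bayesian information criterion: no rhythm, rhythm in EpiKO only, in WT only, the same rhythm in both, and different rhythms. A gene was assigned to a model whose weight was at least 0.5. A separate weight, for different means against a shared mean, was read with the same limit, and genes with a shared mean carry the same level in both genotypes. Weights are probabilities under the fitted models, not p-values. Levels are the fitted mean over the day on the deposited log2 scale, the fold of a rhythm is the ratio of the fitted peak to the fitted trough, and differences are EpiKO minus WT.

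Keratinocytes are born in the basal layer, leave it, and in the granular layer make loricrin, involucrin, filaggrin-type proteins and small proline-rich proteins, which transglutaminases join into the envelope. The S100a genes, at both ends of the cluster, encode small calcium-binding proteins, many of them made in keratinocytes of all layers or in immune cells. The fused-type genes join an S100-like calcium-binding start to long repeats, and the Lce genes encode small cysteine-rich proteins added to the envelope late. The epidermal clock is known to time cell division and the response to ultraviolet light in mouse skin.

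The label was first checked against the markers of the tissue. Basal keratinocyte markers (Krt5, Krt14, Itga6, Col17a1) stood at 14.1 to 17.7 in EpiKO and 13.7 to 17.8 in WT in the authors' deposited table, and suprabasal markers (Krt1, Krt10, Krtdap, Sbsn) at 13.8 to 17.5 in EpiKO and 13.8 to 17.8 in WT. The neutrophil markers S100a8, S100a9 and Mpo lay between −0.99 and 1.93 in both genotypes. By the deposited calls, 3 of 4 Langerhans cell, 3 of 4 sebaceous and 4 of 4 endothelial markers were higher in EpiKO. Lower were 3 of 4 hair follicle and 3 of 4 suprabasal markers, with 1 suprabasal marker higher. Of the 4 basal markers, 1 was higher and 2 lower. Over all genes, 32.7% were higher and 37.4% lower. The endothelial markers were of low level, at 0.56 to 4.78 in EpiKO and −1.77 to 4.41 in WT. Higher were also 1 of 3 T cell and 1 of 4 fibroblast markers. Lower were also 1 of 4 melanocyte and 1 of 3 granular and cornified layer markers. Of 4 muscle markers, Acta1, an actin, stood at 2.21 in EpiKO and 9.90 in WT and Myh4 was also lower, Tnnt3 was higher, at 1.17 in EpiKO and 0.04 in WT, and Ckm had a shared mean of 0.68. The part of these cell types in the members' values was not tested. Arntl itself was assigned a rhythm in WT only (weight 0.882, 4.65-fold, peak at ZT22.7), with a mean of 9.65 in EpiKO and 9.50 in WT in the authors' deposited table; the sources used here do not give which part of the gene Cre removes, so the level does not check the deletion. In a bulk sample, fewer cells of a type and less RNA per cell cannot be told apart.

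The genes of the cluster arose by duplication, and reads of 51 bases cannot always tell its members apart. For each gene, the share of the distinct 51-base windows of its transcripts that also occur in transcripts of another gene was counted. The share of windows that occur more than once was counted within its longest transcript. Of the 53 members, 29 had at least 5% of windows shared or repeated and 24 had less on both counts. For 5 members from the families with copies or repeats, the coding window with the most copies is given, taken from the mm10 genome with GENCODE M21 coding exons, and is printed because a read of the same length drawn from it has no single place of origin.
Hrnr (chr3:93319749-93333570, plus strand), coding bases 1257 to 1307 of 10236, 16 copies within the gene: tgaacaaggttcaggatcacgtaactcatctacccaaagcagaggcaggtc
Flg2 (chr3:93197278-93221391, plus strand), coding bases 3275 to 3325 of 7011, 10 copies within the gene: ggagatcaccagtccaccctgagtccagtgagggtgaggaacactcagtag
Lce3d (chr3:92957390-92958505, plus strand), coding bases 175 to 225 of 297, present in all 6 genes Lce3a to Lce3f: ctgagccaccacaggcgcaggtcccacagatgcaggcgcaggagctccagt
Lce1b (chr3:92655650-92656926, minus strand), coding bases 337 to 387 of 414, present in 9 Lce1 genes: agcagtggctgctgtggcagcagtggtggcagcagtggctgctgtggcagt
Sprr2a3 (chr3:92285417-92291405, plus strand), coding bases 1 to 51 of 252, present in Sprr2a1, Sprr2a2 and Sprr2a3: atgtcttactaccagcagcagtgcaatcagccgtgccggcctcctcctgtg
The Sprr2a3 window begins at the start codon. The sources used here do not give how the authors counted reads with several places of origin.

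The first comparison asked whether the daily rhythm of these genes differed without the epidermal clock. Most members had no rhythm in either genotype: 38 of 53 (71.7%) were assigned to that model in the authors' deposited table, against 56.7% of all genes, a share that was larger among genes of low level. The same rhythm in both genotypes was assigned to 6 members (11.3%), against 16.7% of all genes, namely Tgm3, Ivl, Sprr2a3, Flg2, Rptn and Tchh. S100a10 was the only member rhythmic in EpiKO only (1.89%, against 4.31% of all genes) and Lce6a the only one rhythmic in WT only (1.89%, against 8.41%). No member was assigned different rhythms, a class that held 2.65% of all genes, and 7 had no weight reaching the limit (13.2%, against 11.3%). The plot of model weights shows the margin for each member.

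**Figure D1:**
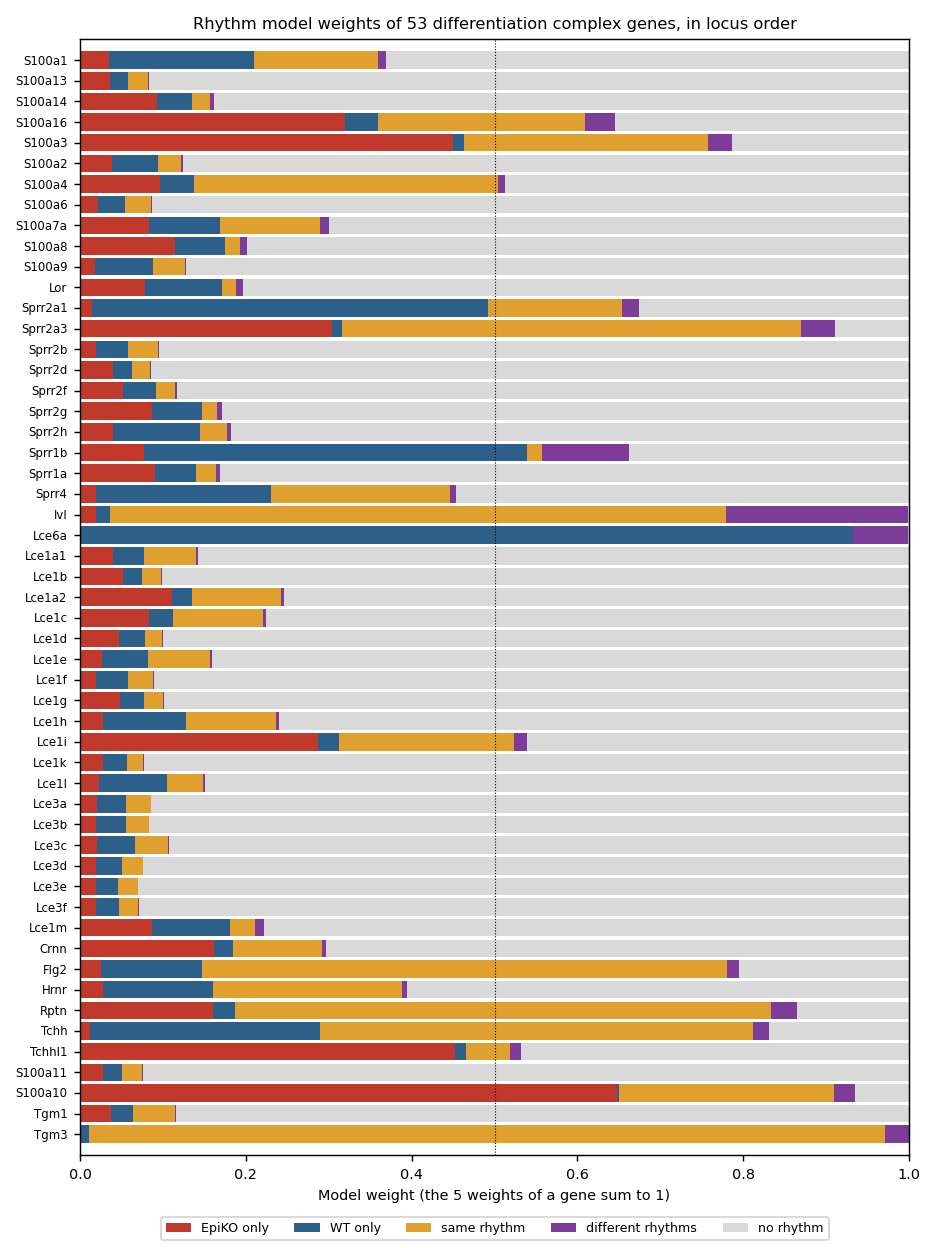
The 5 rhythm model weights of each of the 53 members as a stacked bar from 0 to 1, in locus order with Tgm1 and Tgm3 last (red, EpiKO only; blue, WT only; amber, same rhythm; purple, different rhythms; grey, no rhythm). Grey fills most bars. Amber passes the dotted limit of 0.5 in width for 6 members, with Tgm3 widest at 0.961, blue for Lce6a at 0.932 and red for S100a10 at 0.647.

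Tgm3, the transglutaminase of late differentiating keratinocytes and the hair follicle, had the highest weight for any rhythm among the members. In the authors' deposited table its weight for the same rhythm was 0.961 and its mean was 10.08 in EpiKO and WT alike. Its fitted level was 9.57, 9.99, 10.50, 10.59, 10.17 and 9.66 at ZT0, 4, 8, 12, 16 and 20 in EpiKO and the same in WT. The curve was highest around lights off, at ZT10.6, and spanned 2.14-fold from trough to peak. None of its windows was shared or repeated. Tgm1, the membrane-bound transglutaminase that starts envelope assembly, had a mean of 7.56 in both genotypes, with 5.76% of its exons overlapped by a gene on the other strand, and was assigned no rhythm, weighed at 0.885 in the deposited table.

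Ivl encodes involucrin, an early scaffold of the envelope. In the authors' deposited table it kept the same rhythm with a weight of 0.744, 1.90-fold with a peak at ZT20.4, and the model with different rhythms took 0.219. Its fitted level at the 6 times from ZT0 to ZT20 was 10.44, 9.97, 9.70, 9.89, 10.35 and 10.63 in EpiKO, against 9.97, 9.51, 9.24, 9.43, 9.89 and 10.16 in WT. EpiKO lay above WT at every time, by the fitted mean difference of 0.46, whose weight was 0.966. Lor, which encodes loricrin, the most abundant envelope protein of the epidermis, differed from Ivl on both counts. The deposited table assigned it no rhythm with a weight of 0.803 and the same mean, 8.68, in both genotypes.

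Flg2, Rptn and Tchh, from the fused-type family, each had the same rhythm in EpiKO as in WT and lower means in EpiKO. Flg2 encodes filaggrin-2, a granular layer protein, and cycled 2.17-fold with a peak at ZT2.07 (weight 0.633 in the authors' deposited table). Its fitted level from ZT0 to ZT20 was 9.84, 9.85, 9.38, 8.89, 8.88 and 9.36 in EpiKO, against 13.18, 13.19, 12.71, 12.22, 12.21 and 12.69 in WT. The highest EpiKO level of Flg2 was thus below its lowest WT level, and 65.1% of the windows of its longest annotated transcript were repeated within it.

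Rptn encodes repetin, an envelope precursor of the granular layer, and peaked in the night, at ZT16.8, with a 2.09-fold rhythm that the authors' deposited table weighed at 0.647. Its fitted level from ZT0 to ZT20 was 2.73, 2.37, 2.54, 3.06, 3.42 and 3.25 in EpiKO, against 3.48, 3.12, 3.28, 3.80, 4.16 and 3.996 in WT. Rptn was a gene of low level in both genotypes, and 4.88% of its windows were repeated within it.

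Tchh encodes trichohyalin of the hair follicle's inner root sheath, and its weight of 0.523 for the same rhythm lay close to the limit. Its fitted level from ZT0 to ZT20 was 7.76, 7.70, 7.88, 8.12, 8.19 and 8.01 in EpiKO, against 8.69, 8.63, 8.81, 9.05, 9.11 and 8.93 in WT in the deposited table, a 1.42-fold rhythm with a peak at ZT15.0. Among other genes of the hair shaft and inner root sheath, Krt31 was assigned a rhythm in EpiKO only with a peak at ZT14.5. Krt27 was unassigned, with a best model that peaked at ZT15.0 in both. Krt71 was also unassigned, and its largest weight, 0.340, was for no rhythm. Shared windows made up 27.6% in Krt31, 10.9% in Krt27 and 1.87% in Krt71. Of the 3 listed genes of those structures other than Tchh, Krt31 had a lower mean in EpiKO, by a difference of −0.48 with a weight of 0.562, and Krt27 and Krt71 had shared means. The part of hair follicle cells in the Tchh values was not tested.

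Sprr2a3, a small proline-rich gene of the stress-responsive Sprr2 group, had the largest fold among the members with the same rhythm, 2.60-fold with a peak at ZT1.15, with its model weighed at 0.554 in the authors' deposited table. Its fitted level from ZT0 to ZT20 was 4.10, 3.95, 3.29, 2.78, 2.93 and 3.59 in EpiKO, against 8.06, 7.91, 7.25, 6.75, 6.90 and 7.56 in WT. The model with a rhythm in EpiKO only took a further 0.304 of its weight. Since 60.5% of its windows are shared, its values may hold reads of its copies, which was not tested.

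Lce6a, with no window shared or repeated, was rhythmic in WT only, for which the authors' deposited table gave a weight of 0.932. Its fitted level was 5.35 at every time in EpiKO. In WT it was 5.02, 4.83, 4.24, 3.84, 4.03 and 4.62 from ZT0 to ZT20, a 2.31-fold rhythm with a peak at ZT0.777. The flat EpiKO level lay above the WT curve at all 6 times, and the mean was higher by 0.92 in EpiKO.

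S100a10, the partner of annexin A2 at the plasma membrane, showed the opposite class with a much smaller fold. The authors' deposited table gave a weight of 0.647 for a rhythm in EpiKO only and 0.260 for the same rhythm. Its fitted level from ZT0 to ZT20 was 12.45, 12.45, 12.60, 12.75, 12.76 and 12.61 in EpiKO, a 1.28-fold rhythm with a peak at ZT14.1, against 12.22 at every time in WT. That WT was flat was a choice between models with these weights; no test of the difference in rhythm could be made.

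**Figure D2:**
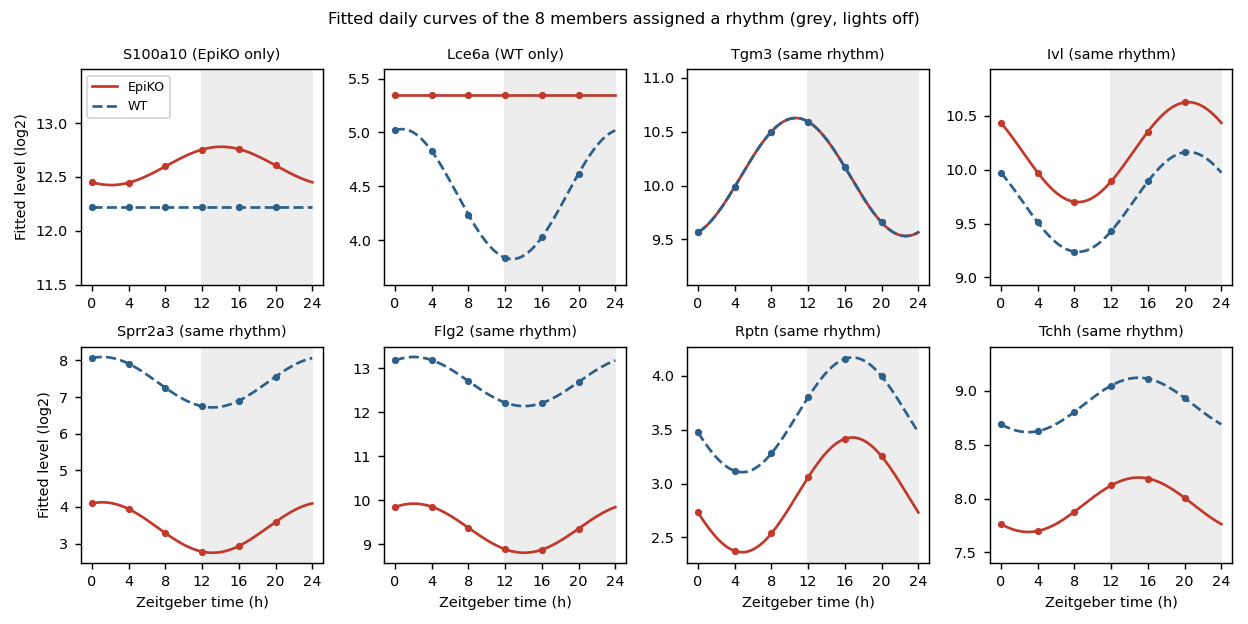
Fitted level (log2, vertical axis) over zeitgeber time in hours (horizontal axis, grey for lights off) of the 8 members assigned a rhythm. The EpiKO curve is solid red and the WT curve dashed blue, points mark the 6 sampling times, and vertical axes differ between panels. Both curves of Tgm3 coincide, Ivl, S100a10 and Lce6a run higher in EpiKO, and Sprr2a3, Flg2, Rptn and Tchh run lower.

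Peaks of the 6 members with the same rhythm were spread over the day. By the authors' deposited table, 2 peaked from ZT0 to before ZT4, none from ZT4 to before ZT8 and 1 in each later window of 4 h. Over all 2954 genes with the same rhythm, the window from ZT4 to ZT8 held 25.2% of peaks, that from ZT16 to ZT20 held 29.2% and that from ZT0 to ZT4 held 7.31%. The members' folds were large beside those genes, with a median of 2.11 and a range of 1.42 to 2.60, against a median of 1.24 and quartiles of 1.17 and 1.42 over all genes with the same rhythm.

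The 7 members without an assignment had largest weights between 0.355 and 0.487 in the authors' deposited table. Of these, S100a16 had the lowest and S100a3, S100a4, Sprr2a1, Sprr1b, Lce1i and Tchhl1 were between 0.4 and 0.5, near the limit from below. Tchh and Sprr2a3 (same rhythm) and Sprr4 (no rhythm, 0.546) were near it from above. The best model of S100a3, which encodes a protein of the hair cuticle, was a rhythm in EpiKO only, 3.78-fold with a peak at ZT15.6, but its weight was 0.450. For Sprr1b, induced in squamous differentiation, the best model in the deposited table was a rhythm in WT only, 5.68-fold with a peak at ZT17.8 and a weight of 0.462. For Sprr2a1 it was also WT only, 2.40-fold with a peak at ZT23.7 and a weight of 0.479, and 96.2% of its windows were shared. These folds belong to models that the weights do not favour by the limit used here.

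The second comparison asked whether mean levels differed. Different means were called for 42 of the 53 members in the authors' deposited table, and most were lower in EpiKO: 32 were lower (60.4%, against 37.4% of all genes) and 10 higher (18.9%, against 32.7%). The median difference was −0.93 over the members and 0 over all genes. The families did not share a direction. S100a genes were mostly higher (7 of 13, with 2 lower), whereas Lce genes (17 of 20), Sprr genes (7 of 10) and fused-type genes (6 of 6) were mostly lower. The plot of mean levels shows that the larger gaps lay among members with many shared or repeated windows.

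**Figure D3:**
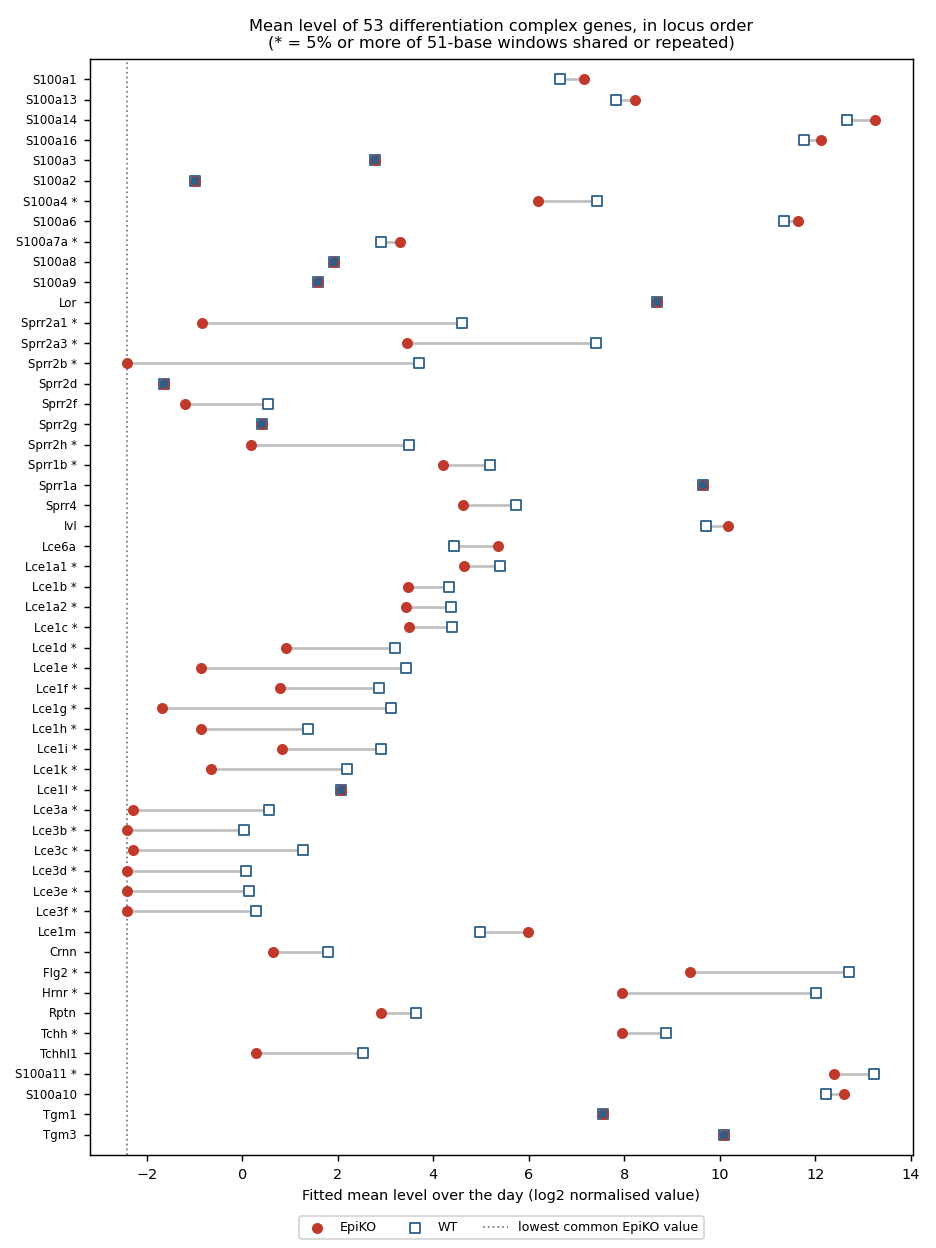
Fitted mean level over the day (log2 normalised value) of the 53 members in locus order, with Tgm1 and Tgm3 last: red circles, EpiKO; open blue squares, WT; overlapping filled marks, a shared mean; asterisks, at least 5% of windows shared or repeated. The dotted line marks −2.41, the lowest value common in EpiKO, where 5 members sit. Gaps in the S100a genes at the top are small and mostly to the right, and the widest gaps, all to the left, belong to Sprr2b, Sprr2a1, Lce1g, Lce1e and Hrnr.

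Direction went with the share of windows found in other genes, in the members and in the whole table alike. Of the members, 10 of 29 with under 5% of windows shared were lower, 9 of 11 with 5 to 20%, 11 of 11 with 20 to 50% and 2 of 2 with more. Among all genes with under 5% of windows shared, 29.3% were lower and 37.6% higher in EpiKO in the authors' deposited table. With 5 to 20% shared, 46.3% were lower, and with 20 to 50% shared, 70.7% were. Among the 704 genes with at least 50% shared, 88.9% were lower, 3.55% were higher and the median difference was −4.06.

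Repeats within a gene went with lower means as well: 77.3% of the 132 genes with 5 to 50% of windows repeated were lower in EpiKO. Only 4 genes had at least 50% repeated, and 2 of them were the members Hrnr and Flg2. Of these 4, 3 were lower and 1 was higher, by 8.90, too few genes to show a direction at that share. The part of read placement in the members' lower means was not tested, since the files hold no reads.

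**Figure D4:**
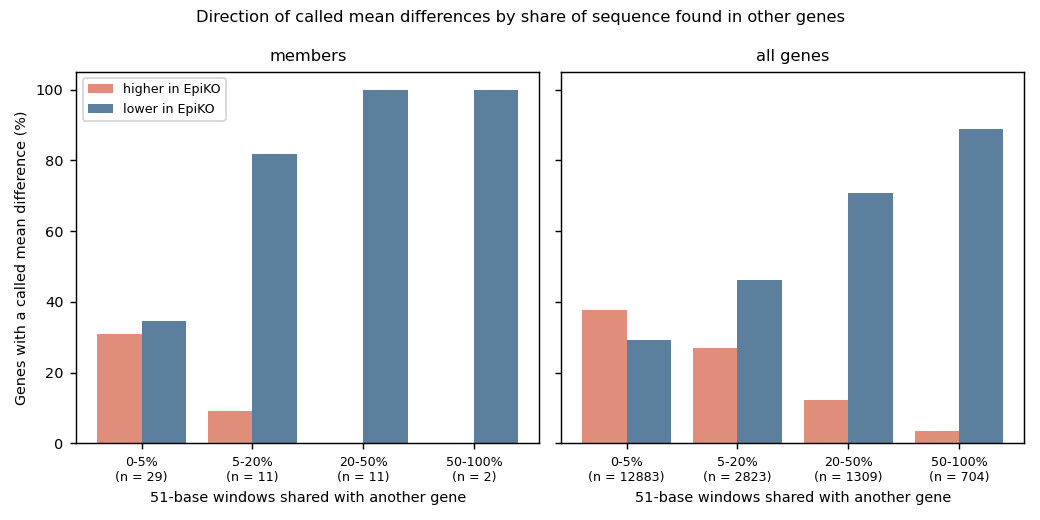
Share of genes (%, vertical axis) whose mean was called higher (salmon) or lower (blue) in EpiKO, by the share of 51-base windows found in another gene (horizontal axis, 4 ranges with the number of genes), for the members on the left and all genes on the right. Blue bars are taller towards the right in both panels, up to 100% of the 2 members and 88.9% of the 704 genes with at least 50% shared.

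Among the 24 members with few shared and few repeated windows, 9 were higher in EpiKO (37.5%, against 37.8% of the 12809 such genes in the authors' deposited table), 5 were lower (20.8%, against 29.0%) and 10 had a shared mean, with a median difference of 0. Those higher were S100a1, S100a13, S100a14, S100a16, S100a6, S100a10, Ivl, Lce6a and Lce1m. Those lower were Sprr2f, Sprr4, Crnn, Rptn and Tchhl1. Of the other 29 members, 27 were lower, S100a7a was higher and Lce1l had a shared mean, with a median difference of −2.44. The share that was higher thus lay near that over all such genes and the share that was lower below it. By rhythm, 16 of the 24 had none (66.7%, against 55.6% of such genes), 3 had the same rhythm (12.5%, against 17.3%), 1 was rhythmic in EpiKO only (4.17%, against 4.36%), 1 in WT only (4.17%, against 8.66%) and none had different rhythms (against 2.9%).

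**Figure D5:**
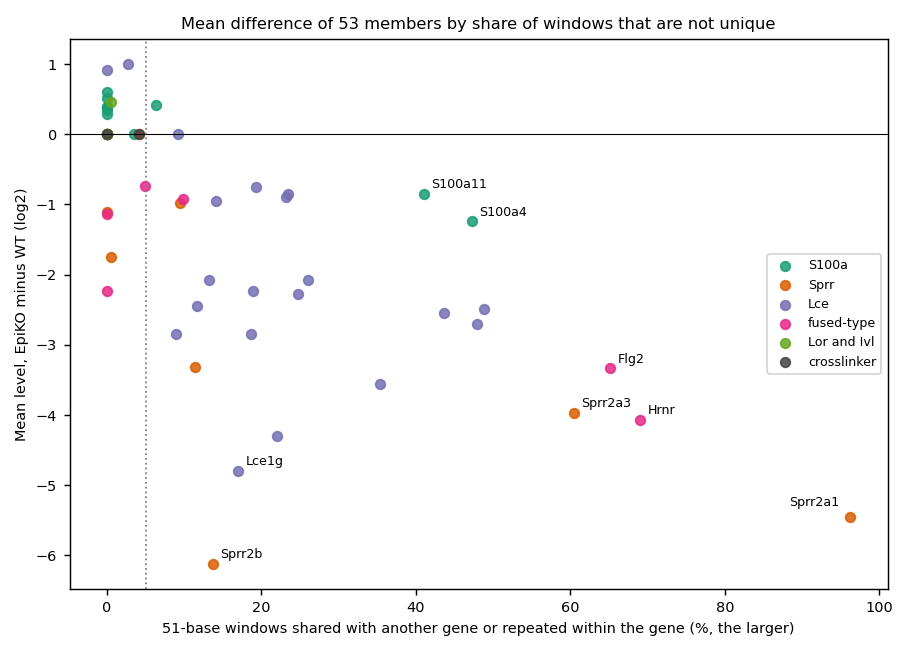
Difference in mean level (EpiKO minus WT, log2, vertical axis) of each member against the larger of its shares of shared and of repeated 51-base windows (%, horizontal axis), coloured by family. Left of the dotted line at 5%, differences lie between −2.24 and 1.00; right of it, 27 of 29 lie below 0, down to −6.12 for Sprr2b.

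Among the S100a genes more means were higher than lower. Their median difference was 0.29, and the 7 higher members differed by 0.29 to 0.60 in the authors' deposited table. S100a14, an epithelial member, stood at 13.26 in EpiKO and 12.66 in WT, the largest of these 7 differences at 0.60. S100a16 stood at 12.11 in EpiKO and 11.77 in WT, S100a6, known from proliferating cells, at 11.64 in EpiKO and 11.35 in WT, and S100a10 at 12.60 in EpiKO and 12.22 in WT. S100a1 stood at 7.16 in EpiKO and 6.64 in WT in the deposited table, and S100a13, which takes part in the release of growth factors, at 8.21 in EpiKO and 7.82 in WT.

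S100a7a, the mouse counterpart of psoriasin and koebnerisin, was also higher, at 3.31 in EpiKO and 2.89 in WT, and the authors' deposited table weighed different means at 0.569. The 2 lower S100a genes were those with many shared windows. S100a11, an envelope-associated member with 41.0% shared, stood at 12.38 in EpiKO and 13.23 in WT, and S100a4, a marker of fibroblasts with 47.3% shared, at 6.19 in EpiKO and 7.42 in WT. Annotated exons of another gene on the same strand cover 51.7% of those of S100a4. S100a8 and S100a9, the alarmins of neutrophils and stressed keratinocytes, had shared means of 1.93 and 1.595, and S100a2 and S100a3 of −0.99 and 2.79.

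Per kilobase of annotated exon, on the log2 scale, S100a11 was the highest of all members, at 13.35 in EpiKO and 14.19 in WT. S100a14 followed, at 12.47 in EpiKO and 11.87 in WT, and S100a10, at 12.32 in EpiKO and 11.94 in WT, both computed from the authors' deposited table. With no spread known, the order of neighbours such as S100a14 and S100a10 cannot be tested. Lor was at 7.85 per kilobase in both genotypes and Ivl at 9.22 in EpiKO and 8.76 in WT.

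The Sprr genes encode crossbridging proteins of the envelope. Sprr1a, the highest of them, had a shared mean of 9.66 in the authors' deposited table (9.97 per kilobase) and no rhythm (weight 0.831). Sprr4, which has no shared or repeated window, stood at 4.62 in EpiKO and 5.72 in WT, with a weight of 0.998 for different means, and Sprr1b at 4.21 in EpiKO and 5.18 in WT with a weight of 0.587 and 9.49% of windows repeated. Sprr2f stood at −1.21 in EpiKO and 0.54 in WT with 0.537% shared, near the lower end of the scale in the deposited table. Sprr2d and Sprr2g had shared means of −1.63 and 0.42.

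The wide gaps in this family belonged to Sprr2 copies. Sprr2a3 stood at 3.44 in EpiKO and 7.41 in WT (60.5% of windows shared), Sprr2a1 at −0.85 in EpiKO and 4.60 in WT (96.2% shared) and Sprr2h at 0.19 in EpiKO and 3.50 in WT (11.4% repeated) in the authors' deposited table. Sprr2b was at −2.41 in EpiKO, the lowest common value, which 513 genes share, against 3.71 in WT, so that no fold is given for it. In WT only 17 genes sat at the lowest value, −2.49, so values at the bottom of the scale were commoner in EpiKO.

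The Lce genes, grouped by position after their values were seen, differed between subclusters. Lce6a and Lce1m, at either end of the Lce genes and with few shared windows, were higher in EpiKO: Lce1m stood at 5.98 in EpiKO and 4.98 in WT (1.995-fold) and Lce6a at 5.35 in EpiKO and 4.43 in WT (1.89-fold) in the authors' deposited table. The 4 neighbours Lce1a1, Lce1b, Lce1a2 and Lce1c were lower, with differences of −0.75 to −0.94, with EpiKO levels of 3.43 to 4.64 and WT levels of 4.32 to 5.39 and with 14.1 to 23.5% of windows shared. Per kilobase, Lce1m, Lce6a and Lce1a1 were the highest Lce genes in EpiKO, at 6.05, 5.68 and 5.15, against 5.05, 4.76 and 5.89 in WT.

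The next Lce1 genes along the chromosome differed more. Lce1e stood at −0.86 in EpiKO and 3.43 in WT and Lce1g at −1.69 in EpiKO and 3.10 in WT, the largest gaps of the subcluster in the authors' deposited table, with 22.0% and 17.0% of windows shared. Lce1d, Lce1f, Lce1h, Lce1i and Lce1k were lower, with differences of −2.07 to −2.84. Lce1l, next along the chromosome, had a shared mean of 2.06 with 9.19% shared.

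All 6 Lce3 genes, whose human relatives are induced when the skin barrier is broken, were lower in EpiKO, with 11.7 to 48.8% of windows shared. In EpiKO, Lce3b, Lce3d, Lce3e and Lce3f sat at the lowest common value of −2.41 and Lce3a and Lce3c just above it at −2.29. In WT the 6 genes stood between 0.03 and 1.26 in the authors' deposited table, and no fold is given for them. Weights for different means ran from 0.584 for Lce3d to 0.994 for Lce3c. All 6 were assigned no rhythm.

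The fused-type genes were lower in EpiKO without exception among the 6 with a row, with a median difference of −1.69. Hrnr, which encodes hornerin of the cornified layer, stood at 7.95 in EpiKO and 12.01 in WT in the authors' deposited table, 16.7-fold lower in EpiKO, and was assigned no rhythm (weight 0.606). Flg2 stood at 9.37 in EpiKO and 12.70 in WT, 10.1-fold lower in EpiKO. Of Hrnr's windows 69.0% were repeated, the highest share among the members, and a single one, printed above, occurs 16 times in its coding sequence.

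The fused-type members with fewer repeats had smaller gaps in the deposited table. Tchh stood at 7.94 in EpiKO and 8.87 in WT (9.86% repeated), Rptn at 2.89 in EpiKO and 3.64 in WT (4.88%), and Crnn, encoding cornulin, mainly known from oesophagus and upper epidermis, at 0.65 in EpiKO and 1.79 in WT with no shared or repeated window and a weight of 0.688. Tchhl1, a trichohyalin-like gene also without such windows, stood at 0.29 in EpiKO and 2.53 in WT with a weight of 0.909 for different means in the authors' deposited table. Both are genes of low level.

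Level bore on the calls too. Over all genes in the authors' deposited table, those with a level under 0 were higher in EpiKO in 4.18% and lower in 28.7%, and those from 0 to 4 were higher in 17.3% and lower in 42.9%. From 8 to 12, 45.4% were higher and 36.1% lower, and from 12 up, 33.0% were higher and 47.9% lower, so the share of lower calls had no single trend with level. The members' median level over both genotypes, not scaled to length, was 3.10, against 7.61 over all genes. With low-level genes left out, 27 members remained, of which 13 were lower, and the median difference was 0. The share of lower calls over all genes with the same cut was not computed. By level, 5 of 9 members from 4 to 8 were lower (55.6%, against 37.8% of all genes). From 8 to 12 these were 3 of 10 (30%, against 36.1%), and from 12 up 1 of 3 (33.3%, against 47.9%). Over all genes, assignment to no rhythm went with level as well. It was made for 9 of 9 members and 97.99% of all genes under 0, and 17 of 22 members and 80.7% of all genes from 0 to 4. From 4 to 8 these were 5 of 9 members and 50.7% of all genes, and from 8 to 12, 5 of 10 members and 40.5%. From 12 up they were 2 of 3 members and 35.3% of all genes. The part of level in the members' counts was not tested.

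The promoters were then read for motifs of known regulators. RefSeq sequences (GRCm38.p6) of 250 bases before to 50 after the annotated transcription start gave 53 promoters for 48 of the members. The canonical E-box CACGTG, the element bound by BMAL1 with CLOCK, lay in 3 of the 53 promoters (5.66%), those of S100a6, S100a11 and Lce3a, against 7.15% of 32851 promoters. The AP-1 element TGANTCA, long known from Ivl and other differentiation genes, lay in 14 of the 53 (26.4%), against 7.81%. By gene these were 6 of 9 Sprr genes, 4 of 6 fused-type ones, Lor, Ivl and 2 of 10 S100a genes, with none of 19 in Lce. CACCC, bound by KLF factors, lay in 30 of the 53 (56.6%), against 57.5%. All 3 motifs were sought on both strands, no motif contains another, and a match is a description of sequence, not a bound site.

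The promoters of all 6 members with the same rhythm, and of the WT-rhythmic Lce6a, are printed to show what stands there. Capitals mark AP-1 letters. None of the 7 stretches holds CACGTG.
Tgm3, chr2:130012090-130012389, plus strand: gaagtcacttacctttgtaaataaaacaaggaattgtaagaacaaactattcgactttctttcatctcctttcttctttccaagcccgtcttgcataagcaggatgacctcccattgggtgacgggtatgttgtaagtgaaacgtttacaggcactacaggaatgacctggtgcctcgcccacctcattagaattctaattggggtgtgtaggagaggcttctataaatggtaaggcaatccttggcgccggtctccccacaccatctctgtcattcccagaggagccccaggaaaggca
Ivl, chr3:92573686-92573985, minus strand: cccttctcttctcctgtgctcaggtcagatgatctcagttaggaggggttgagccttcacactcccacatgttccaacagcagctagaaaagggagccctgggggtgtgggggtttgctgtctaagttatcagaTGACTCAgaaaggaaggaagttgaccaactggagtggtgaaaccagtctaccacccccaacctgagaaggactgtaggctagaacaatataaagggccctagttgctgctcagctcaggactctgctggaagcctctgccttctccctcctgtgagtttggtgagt
Sprr2a3, chr3:92285054-92285353, plus strand: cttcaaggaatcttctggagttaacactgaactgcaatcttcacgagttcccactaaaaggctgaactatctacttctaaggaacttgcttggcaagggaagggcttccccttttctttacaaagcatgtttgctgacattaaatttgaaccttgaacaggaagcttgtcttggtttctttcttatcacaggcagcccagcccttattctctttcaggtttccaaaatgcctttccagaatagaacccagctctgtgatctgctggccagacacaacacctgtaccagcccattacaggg
Flg2, chr3:93197023-93197322, plus strand: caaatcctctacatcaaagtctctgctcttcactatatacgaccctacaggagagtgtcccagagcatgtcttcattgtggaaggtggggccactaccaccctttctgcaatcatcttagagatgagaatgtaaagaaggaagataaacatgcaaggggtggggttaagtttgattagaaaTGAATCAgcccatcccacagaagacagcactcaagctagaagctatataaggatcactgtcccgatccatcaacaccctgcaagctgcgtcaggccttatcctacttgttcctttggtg
Rptn, chr3:93393449-93393748, plus strand: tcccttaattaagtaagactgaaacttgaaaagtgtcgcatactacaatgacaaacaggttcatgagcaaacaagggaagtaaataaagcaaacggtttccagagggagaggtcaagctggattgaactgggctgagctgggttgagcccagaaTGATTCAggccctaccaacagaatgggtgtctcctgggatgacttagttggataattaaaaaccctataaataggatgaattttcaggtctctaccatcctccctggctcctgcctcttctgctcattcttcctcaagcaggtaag
Tchh, chr3:93442080-93442379, plus strand: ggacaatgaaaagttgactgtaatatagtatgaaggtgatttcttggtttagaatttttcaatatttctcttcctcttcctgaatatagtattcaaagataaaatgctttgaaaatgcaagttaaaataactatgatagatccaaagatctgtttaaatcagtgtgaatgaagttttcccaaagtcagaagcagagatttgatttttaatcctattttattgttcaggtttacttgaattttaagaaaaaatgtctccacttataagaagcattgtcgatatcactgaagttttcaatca
Lce6a, chr3:92621611-92621910, minus strand: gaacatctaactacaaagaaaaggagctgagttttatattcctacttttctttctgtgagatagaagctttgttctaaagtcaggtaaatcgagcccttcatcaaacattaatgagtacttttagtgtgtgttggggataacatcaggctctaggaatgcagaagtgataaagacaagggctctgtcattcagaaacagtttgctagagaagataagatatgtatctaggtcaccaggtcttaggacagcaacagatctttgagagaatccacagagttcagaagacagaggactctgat
The AP-1 letters begin 116 bases before the start in Ivl, 69 in Flg2 and 96 in Rptn, genes that peaked at ZT20.4, ZT2.07 and ZT16.8. Tgm3, Sprr2a3 and Tchh, with peaks at ZT10.6, ZT1.15 and ZT15.0, have none in this window, so 3 of the 6 hold the motif.

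Other genes of cornification and its regulators were read from lists outside the rule. Of 30 cornification genes 29 had a row. In the authors' deposited table the means of 7 were higher (24.1%, against 32.7% of all genes), 13 lower (44.8%, against 37.4%) and 9 shared. Among 25 with few shared or repeated windows, 7 were higher (28%, against 37.8% of such genes), 10 lower (40%, against 29.0%) and 8 shared. Of the 29, 16 had no rhythm (55.2%, against 56.7% of all genes) and 3 had the same rhythm (10.3%, against 16.7%). A rhythm in EpiKO only was assigned to 1 (3.45%, against 4.31%) and in WT only to 3 (10.3%, against 8.41%). The other 6 were unassigned (20.7%, against 11.3%). Krt77, a suprabasal keratin, stood at 17.02 in EpiKO and 16.18 in WT, and Krt2, the late suprabasal keratin, at 6.69 in EpiKO and 8.35 in WT. Sbsn, encoding suprabasin, stood at 13.84 in EpiKO and 15.59 in WT with 6.92% of windows shared.

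Pglyrp4, an antibacterial protein gene inside the cluster, stood at 10.60 in EpiKO and 9.80 in WT in the authors' deposited table and kept the same 1.52-fold rhythm with a peak at ZT3.24. Aloxe3, a lipoxygenase of the lipid barrier, was assigned a rhythm in WT only, 1.87-fold with a peak at ZT11.8 and a weight of 0.597. Pglyrp3, its neighbour in the family of Pglyrp4, was unassigned.

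All 20 regulators had a row. In the authors' deposited table the means of 4 were higher (20%, against 32.7% of all genes). Those of 10 were lower (50%, against 37.4%) and those of 6 were shared. Among the 15 with few shared or repeated windows, 4 were higher (26.7%, against 37.8% of such genes). A further 7 of them were lower (46.7%, against 29.0%) and 4 had a shared mean. Ppard, the nuclear receptor PPAR-delta, had by far the widest gap, 8.98 in EpiKO and 0.59 in WT, with 0.092% of windows shared and none repeated. The origin of this gap was not tested. Klf4, a driver of barrier formation, stood at 13.64 in EpiKO and 14.49 in WT, Junb, an AP-1 subunit, at 13.94 in EpiKO and 14.88 in WT with 5.72% shared, and Cebpb at 8.77 in EpiKO and 11.01 in WT with 18.1% shared.

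By rhythm, 9 regulators had none (45%, against 56.7% of all genes) and 2 had the same (10%, against 16.7%). A rhythm in EpiKO only was assigned to 2 (10%, against 4.31%) and in WT only to 1 (5%, against 8.41%). Different rhythms were assigned to 1 (5%, against 2.65%), and 5 were unassigned (25%, against 11.3%). Nfe2l2, the oxidative stress factor NRF2, was rhythmic in WT only, 1.40-fold with a peak at ZT10.9 (weight 0.804), and Notch1 in EpiKO only, 1.28-fold with a peak at ZT22.2 (weight 0.811), in the authors' deposited table. Ahr, the aryl hydrocarbon receptor, had different rhythms, 1.55-fold with a peak at ZT2.63 in EpiKO and 1.27-fold with a peak at ZT4.04 in WT. Hopx kept the same 1.37-fold rhythm with a peak at ZT13.8.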

How the data were processed

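Per the labels' protocols, polyadenylated RNA of EpiKO epidermis was sequenced with a stranded kit as single reads of 51 bases. Per the submitters' processing notes, the build was mm10 and the tools included HISAT2 2.2.1 and featureCounts 1.6.0, beside edgeR, SAMtools 1.3.1 and Trimmomatic 0.36; the sources used here do not give the settings for strand or for reads that match several places. The series design text names dryR for the comparison with WT. The deposited table holds model weights as scores from 0 to 1 and mean levels as log2 values, and the sources used here do not give how the authors scaled the libraries. The table labels its sides WT and FC. No source used here defines FC, which was read as EpiKO since only WT and EpiKO were compared, and every direction given here rests on that reading. Model identities were read from which coefficients are filled. The deposited height equalled the peak-to-trough log2 height of the fitted curve for 5062 of 5062 EpiKO and 5914 of 5914 WT rhythms, within 1e-06.

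Computed here were classes, differences, folds, fitted levels at the sampling times, exon positions and lengths, and shares of 51-base windows, over GENCODE M21 transcripts on both strands. Symbols matched 17720 of 17721 identifiers. The level of a gene over both genotypes is the mean of its EpiKO and WT levels. Scripts were tested on simulated data. With no values per library there are no replicates to compare, no p-values and no batches to look for. The precision of means and rhythms cannot be given, since the spread between animals and the depth are not known. The members and lists were chosen with earlier results of these data known. Named in full are members with a rhythm class, members with a called mean difference of at least 0.5 and the 3 with the largest level per kilobase in each family; outside the rule, the 4 per list with the largest height or difference. Acta1, Krt27, Krt31 and Prr9 and the other genes inside the cluster were named after their values were seen. Alternatives were weight limits of 0.4, 0.8 and none, summed weights, a minimum height of 0.25 or mean difference of 0.5 on the log2 scale, dropping the lowest 0.25 quantile of levels, centring on the median, leaving out S100a genes, leaving out Tgm1 and Tgm3 and leaving out members with shared windows. Python 3.11.15, NumPy 2.4.6, pandas 2.3.3 and matplotlib 3.10.9 were used. One further gene's result is not reported here.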

Additional observations from a re-analysis of the deposited data

How the results depend on the processing

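No paired analysis was possible because the deposited table holds no values per library, and for the same reason no library could be left out. Of 74 recomputed counts and medians, 51 stayed within 1.5 times, 23 moved further and 0 reversed. The 51 include 3 from centring on the median of all genes, which is 0 and so could change nothing. Some other settings could change nothing either. A stricter limit, a minimum height or fewer members cannot raise the count of 0 members with different rhythms. A mean weight limit of 0.4 can add no higher or lower mean, since genes below 0.5 carry a shared mean. The 51 thus do not measure how stable the results are. Members rhythmic in EpiKO only, 1 at the weight limit of 0.5, were 2 at a limit of 0.4 and with no limit, 0 at 0.8 and 0 without S100a genes, and summed weights gave 4.69. Members rhythmic in WT only, also 1, were 3 at 0.4 and with no limit, and summed weights gave 4.61. Members with the same rhythm, 6, were 1 at a limit of 0.8. Summed weights gave 0.797 members with different rhythms, against 0 assigned. Members without a rhythm, 38, were 16 when low-level genes were left out and 18 when members with shared windows were. Higher means, 10, were 4 with a minimum difference of 0.5 and 3 without S100a genes. Lower means, 32, were 13 without low-level genes and 10 without members with shared windows. The median difference of −0.93 was 0 without low-level genes, 0 without shared windows and −1.91 without S100a genes. Leaving out members with shared or repeated windows, an alternative chosen after seeing the data, gave 3 with the same rhythm, 16 without one, 5 lower means and a median of 0. These smaller counts are over fewer members: 27 without low-level genes, 29 without shared windows and 24 without shared or repeated ones. No depth or counting interval can be given.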

Other observations

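The cluster on chromosome 3 also holds 8 genes with a row that the rule did not take. In the authors' deposited table, 5 of them had a shared mean (62.5%, against 29.9% of all genes), 1 was higher in EpiKO (12.5%, against 32.7%) and 2 were lower (25%, against 37.4%). Shared means were given for Kprp at 7.93, 2310050C09Rik at 9.12, Crct1 at 5.77, Pglyrp3 at 4.55 and 9130204L05Rik at 3.37, and Pglyrp4 was the higher gene. Kprp and 2310050C09Rik lie on either side of Lce1l, which also had a shared mean, and Crct1 lies between Lce3f, which was lower, and Lce1m, which was higher. None of the windows of these 3 genes was shared or repeated. Prr9, a proline-rich gene between Lor and the Sprr2 genes, was lower, at 3.48 in EpiKO and 6.19 in WT, and also had no shared window. The processed pseudogene 4930529C04Rik, with 35.8% of windows shared, stood at the lowest common value of −2.41 in EpiKO and at 6.81 in WT.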
